A study of Mus musculus with 14 samples.

Results

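The 9 genes described here act in the removal of dead cells and of the nuclei that developing red cells expel. They were taken by symbol from a list of efferocytosis receptors (Mertk, Axl, Timd4, Stab1 and Itgav), the bridging molecules that tie receptor to prey (Gas6, Pros1 and Mfge8) and the lysosomal nuclease Dnase2a. They are 9 of 19465 genes in the feature tables of the C1qa cross and of 32589 in those of the purchased mice. Their level in a section is given in CPM, the gene's share of the unique molecular identifiers (UMIs) of the section scaled to the usual common total, over the tissue-covered spots that held at least 1000 detected genes. Each spot is a small region that can hold several cells, so spots were neither cells nor replicates, and a lower level in a section cannot be told apart between fewer cells of a type and less RNA per cell.

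The study placed blood-forming tissue of mice on Visium slides, which read RNA through gene-specific probes at positions across a fixed section. There were 14 sections. The 6 purchased wild-type sections were all from C57BL/6 mice, and each was alone in its group. They were fetal liver at E13.5 and at E14.5, leg bone at P8, and marrow of leg bone at 89 weeks. The others were leg bone of a 6-month-old mouse softened for 5 days in EDTA, and adult spleen. The bone and marrow sections are called leg bone below. The 8 sections of the C1qa cross came from heterozygous parents of a knockout line, with 2 sections in each of 4 groups: wild-type and C1qa knockout fetal liver at E14.5, numbered 2 and 4, and wild-type and C1qa knockout spleen at 3 months, numbered 1 and 2. The line carries the mutation in the germline, so no cell type of the knockouts made C1qa. C1qa encodes a chain of C1q, the first complement component, which also coats dying cells. With 2 sections a group, p-values reflect the spread between these sections only. Purchased and cross sections were never tested against each other, because they differed in feature table and software.

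Between 15 and 2320 spots per section passed, holding 37167 to 56182915 UMIs. The EDTA section was the one with 15 spots and had 0 to 9 counts for each of the 9 genes, so it is left out unless named. C1qa itself had 1 or 2 counts in each knockout section. B cell markers, all 6 of which were detected, marked the spleens, and hepatocyte markers the fetal livers. The sections were not equally pure. Muscle markers summed to 1208 to 3048 CPM in wild-type and 102 to 338 CPM in knockout fetal liver, and pancreas enzyme genes to 38.7 to 315 CPM in wild-type and 869 to 8739 CPM in knockout spleen, with 6 of the 7 enzymes on the cross table. Main-tissue spots had at least 0.5% of UMIs from hepatocyte markers in fetal liver or from neutrophil markers in leg bone. In spleen they had under 0.5% from the pancreas genes. They were 2190 of 2320 spots in wild-type liver 2 and 237 of 806 in wild-type liver 4. In the knockouts they were 2073 of 2147 spots in liver 2 and 366 of 589 in liver 4. Stromal markers summed to 1193 and 5949 CPM in wild-type livers 2 and 4, and to 1571 and 3544 CPM in knockout livers 2 and 4.

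Efferocytosis is the engulfment of dying cells, mostly by macrophages. Phosphatidylserine on the prey is seen directly by receptors such as Timd4 and Stab1 or through bridges. Gas6 links it to the kinases Mertk and Axl, and Pros1 links it to Mertk. Mfge8 links it to integrins that contain the alpha v chain encoded by Itgav. In fetal liver, bone marrow and the red pulp of the spleen, the central macrophage of an erythroblastic island takes up the nuclei expelled from erythroblasts and breaks their DNA down with Dnase2a. In the white pulp, macrophages that clear dying B cells and the follicular dendritic cells that make Mfge8 do similar work in germinal centres.

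The spleen data below turned on a division of these genes into a set that followed C1q and erythroid markers and a set that followed lymphocyte markers, so the promoters of a pair from each are shown: Mertk and Axl from the first set, Mfge8 and Timd4 from the second. Each line gives the 250 bases before the RefSeq start site in GRCm38.p6 (mm10), 5′ to 3′ on the gene's strand. Capitals mark matches to the core letters bound by PU.1 and SpiC (GAGGAA or its complement TTCCTC), to a nuclear receptor half-site (AGGTCA or TGACCT) and to a Maf half-site (TGCTGA or TCAGCA).
Mertk, chr2:128698665-128698914 (plus strand): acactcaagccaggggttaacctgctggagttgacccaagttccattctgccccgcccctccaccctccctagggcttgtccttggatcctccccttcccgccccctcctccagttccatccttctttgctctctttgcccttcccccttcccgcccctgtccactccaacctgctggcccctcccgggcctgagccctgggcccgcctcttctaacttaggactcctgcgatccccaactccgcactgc
Axl, chr7:25788734-25788983 (minus strand): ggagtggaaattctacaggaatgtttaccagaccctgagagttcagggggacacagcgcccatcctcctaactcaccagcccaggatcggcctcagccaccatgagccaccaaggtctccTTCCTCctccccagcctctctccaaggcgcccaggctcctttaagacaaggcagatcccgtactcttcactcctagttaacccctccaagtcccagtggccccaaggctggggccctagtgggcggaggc
Mfge8, chr7:79149061-79149310 (minus strand): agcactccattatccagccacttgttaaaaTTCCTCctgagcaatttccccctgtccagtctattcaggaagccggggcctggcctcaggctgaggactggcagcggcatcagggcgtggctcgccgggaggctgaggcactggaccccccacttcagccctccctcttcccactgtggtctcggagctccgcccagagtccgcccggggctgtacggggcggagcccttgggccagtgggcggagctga
Timd4, chr11:46810549-46810798 (plus strand): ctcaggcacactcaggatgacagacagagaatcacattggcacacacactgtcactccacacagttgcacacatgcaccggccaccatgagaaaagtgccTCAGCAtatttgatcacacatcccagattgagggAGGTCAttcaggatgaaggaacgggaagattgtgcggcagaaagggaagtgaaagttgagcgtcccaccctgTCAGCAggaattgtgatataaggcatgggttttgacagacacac
All 9 genes had an entry in the promoter table. The Mertk window held none of these motifs, as did those of Gas6, Pros1 and Dnase2a. The Axl window held TTCCTC at 130 to 125 bases before the start and the Mfge8 window held it at 220 to 215. Timd4 had AGGTCA at 116 to 111 and TCAGCA in 2 places, which begin 150 and 44 bases before the start. Such letters are common: of 32851 mouse promoters of this length, 23.3% held the PU.1 and SpiC core, 14.0% the nuclear receptor half-site and 16.1% the Maf half-site. Neither pair shared a motif, and a match is a description of letters rather than of binding. For Axl and Timd4 the RefSeq gene bounds begin inside the window shown. The gene bodies lay on several chromosomes. Mertk spans chr2:128698915-128803162, Itgav chr2:83722303-83806917, Axl chr7:25756500-25788924, Mfge8 chr7:79133768-79149060, Gas6 chr8:13465374-13494535, Dnase2a chr8:84908755-84911703, Timd4 chr11:46810786-46844333, Stab1 chr14:31139017-31168651 and Pros1 chr16:62854307-62929346.

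The first question was where each gene was most abundant. Mertk, the kinase through which macrophages engulf phosphatidylserine-coated prey, was at 54.1 and 32.6 CPM (wild type, numbers 2 and 4) and 38.8 and 24.0 CPM (knockout, numbers 2 and 4) in fetal liver, and at 99.3 and 76.9 CPM (wild type, numbers 1 and 2) and 77.3 and 99.6 CPM (knockout, numbers 1 and 2) in spleen. The purchased sections gave 24.6 CPM at E13.5, 25.8 CPM at E14.5, 51.3 CPM in P8 leg bone, 21.0 CPM at 89 weeks and 139 CPM in adult spleen. Every spleen thus stood above every fetal liver and leg bone. Axl, its sister kinase, was at 65.6 and 121 CPM (wild type) and 55.1 and 75.0 CPM (knockout) in fetal liver, against 310.1 and 321 CPM (wild type) and 224 and 198 CPM (knockout) in spleen. In the purchased sections Axl went from 38.4 CPM at E13.5 and 27.6 CPM at E14.5 to 112 CPM in P8 leg bone, 96.3 CPM at 89 weeks and 296 CPM in adult spleen. Spleens and fetal livers did not overlap for Axl in either source of mice.

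Timd4, a phosphatidylserine receptor of resident macrophages, was at 15.4 and 3.38 CPM (wild type) and 15.5 and 7.73 CPM (knockout) in fetal liver, and at 52.6 and 36.0 CPM (wild type) and 48.5 and 59.5 CPM (knockout) in spleen. The purchased livers had 18.1 CPM at E13.5 and 16.2 CPM at E14.5, the leg bones 4.32 CPM at P8 and 2.13 CPM at 89 weeks, and the adult spleen 94.8 CPM. Timd4 also had the widest gap between replicates of the 9 genes, 4.55-fold between the wild-type fetal livers. Of these livers, number 2 had 2190 main-tissue spots of 2320 and number 4 had 237 of 806. Stab1, a scavenger receptor of sinusoidal endothelium and some macrophages, took the opposite order. It was at 56.4 and 56.2 CPM (wild type) and 50.3 and 48.2 CPM (knockout) in fetal liver, and at 39.1 and 32.7 CPM (wild type) and 34.5 and 29.5 CPM (knockout) in spleen. The purchased sections had 55.0 CPM at E13.5, 51.2 CPM at E14.5, 62.9 CPM at P8, 21.0 CPM at 89 weeks and 37.8 CPM in spleen. All fetal livers were above all spleens, and replicates of Stab1 lay within 1.20-fold.

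Itgav, the integrin chain that binds Mfge8-coated prey, showed no such order. Its levels were 41.7 and 73.5 CPM (wild type) and 27.4 and 38.6 CPM (knockout) in fetal liver, and 30.1 and 37.9 CPM (wild type) and 58.9 and 56.6 CPM (knockout) in spleen. In purchased mice it reached 296 CPM in P8 leg bone, against 18.9 CPM at 89 weeks, 31.6 and 26.6 CPM in the E13.5 and E14.5 livers and 66.7 CPM in spleen. Its highest level was therefore in P8 bone, and liver and spleen of the cross overlapped.

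Among the bridging molecules, Gas6, which joins phosphatidylserine to Mertk and Axl, was at 23.0 and 28.6 CPM (wild type) and 15.5 and 29.1 CPM (knockout) in fetal liver. It was at 148 and 149 CPM (wild type) and 99.6 and 81.3 CPM (knockout) in spleen. In purchased mice it was lowest in fetal liver, with 5.27 CPM at E13.5 and 4.29 CPM at E14.5, and stood at 66.3 CPM in spleen, 112 CPM at P8 and 143 CPM at 89 weeks. Pros1, a vitamin K-dependent protein that joins phosphatidylserine to Mertk and also restrains clotting, varied less. It was at 30.0 and 35.4 CPM (wild type) and 30.6 and 35.2 CPM (knockout) in fetal liver, and at 68.7 and 81.4 CPM (wild type) and 60.6 and 49.7 CPM (knockout) in spleen. Purchased mice had 18.1 CPM at E13.5, 16.4 CPM at E14.5, 67.0 CPM at P8, 53.4 CPM at 89 weeks and 29.7 CPM in spleen, so here leg bone and not spleen was highest.

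Mfge8, the milk-fat globule protein that bridges to alpha v integrins, had the largest span between organs. It was at 152 and 98.8 CPM (wild type) and 105 and 72.0 CPM (knockout) in fetal liver, and at 817 and 795 CPM (wild type) and 851 and 921 CPM (knockout) in spleen. The purchased sections gave 48.1 CPM at E13.5, 41.0 CPM at E14.5, 192 CPM at P8, 13.0 CPM at 89 weeks and 646 CPM in adult spleen. Dnase2a, which digests DNA of engulfed nuclei, was at 25.7 and 19.9 CPM (wild type) and 28.7 and 26.5 CPM (knockout) in fetal liver, and at 99.3 and 82.8 CPM (wild type) and 64.5 and 59.5 CPM (knockout) in spleen. In purchased mice it went from 22.8 and 21.6 CPM in the E13.5 and E14.5 livers to 30.8 CPM at P8, 54.1 CPM at 89 weeks and 66.4 CPM in spleen. No fetal liver reached any spleen for either gene.

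**Figure D1:**
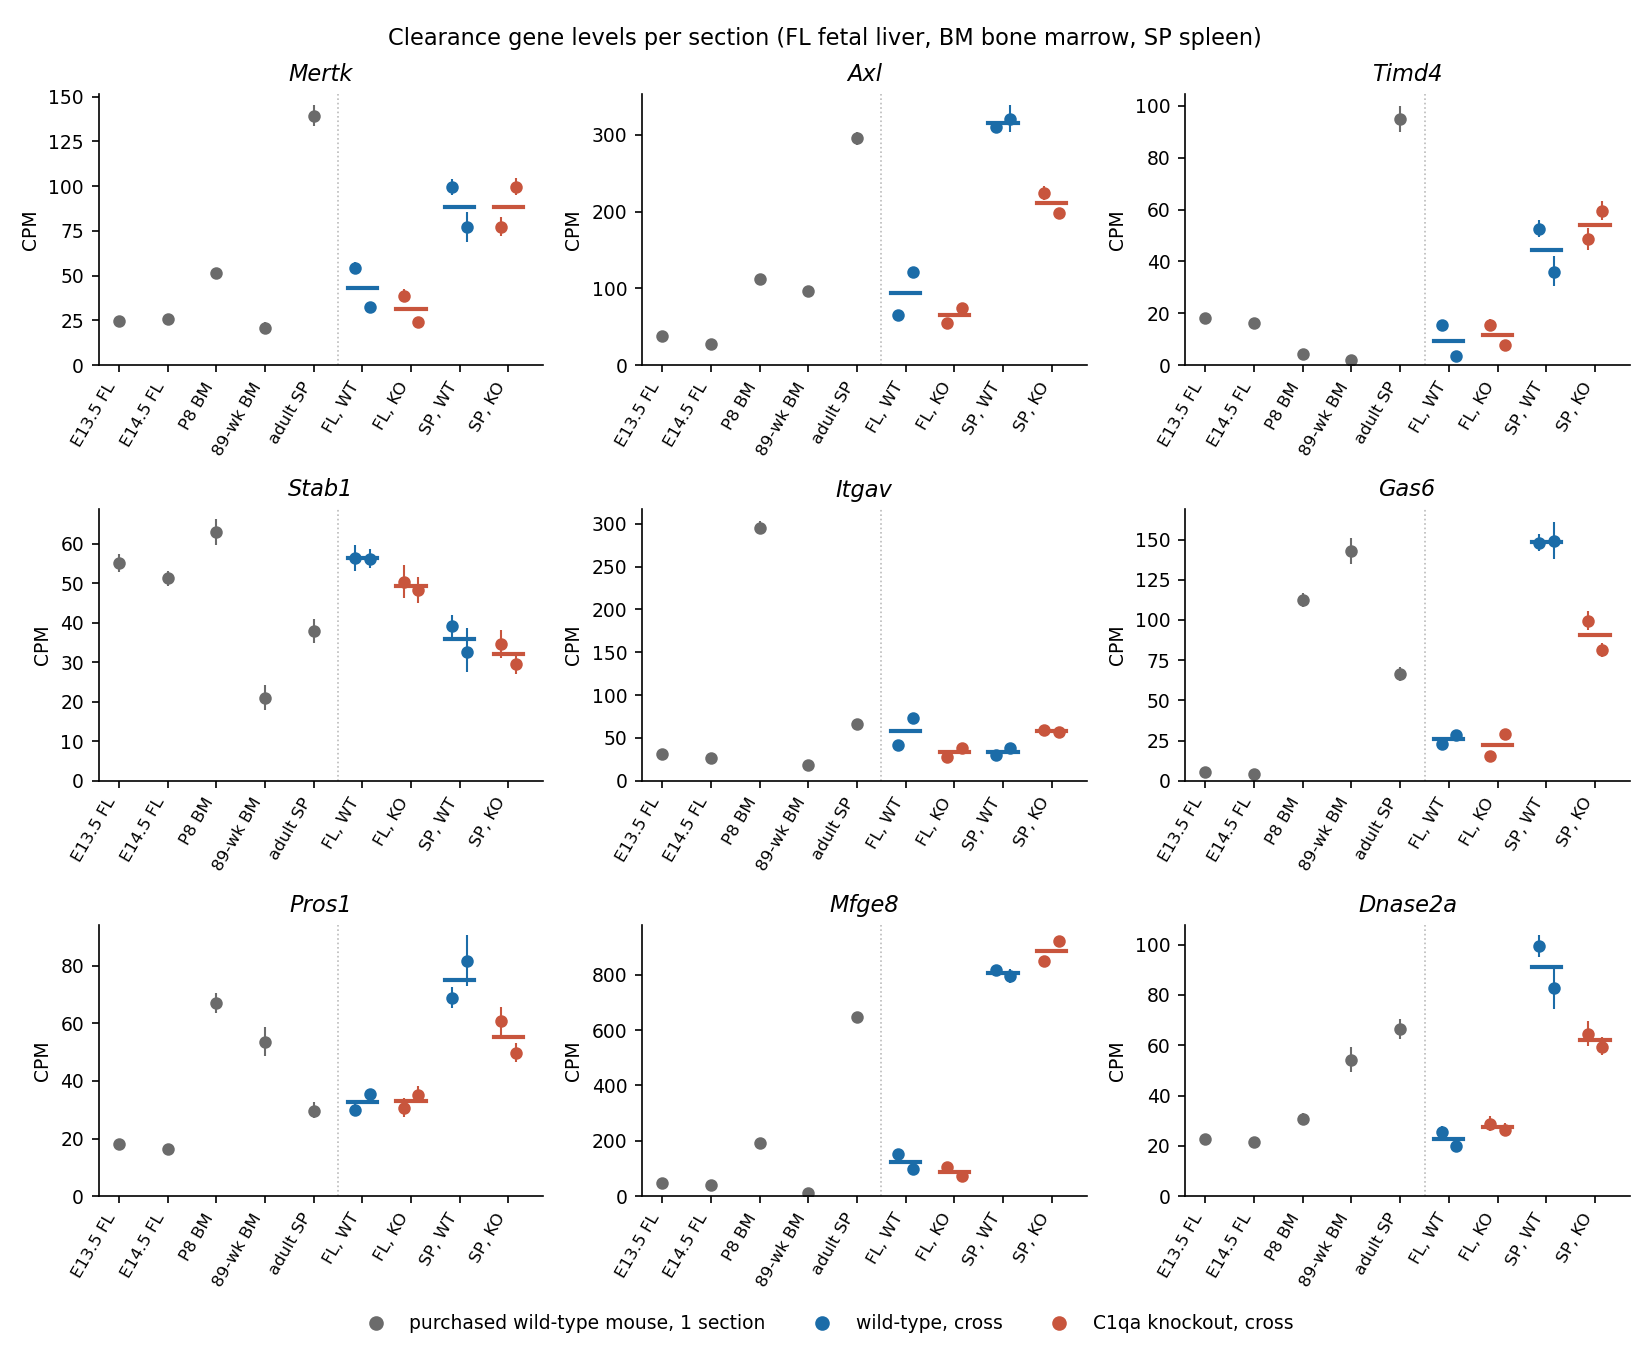
Level of each of the 9 genes in CPM (vertical axis, each panel with its own scale) in fetal liver (FL), bone marrow of leg bones (BM) and spleen (SP). Points are sections, grey for purchased mice without the EDTA section, blue for wild-type and red for knockout mice of the cross, with 95% Poisson intervals and bars at the means of the groups of 2. Mfge8 runs from 13.0 CPM in 89-week bone marrow to 921 CPM in a knockout spleen, Stab1 is the gene higher in every fetal liver than in any spleen, and Itgav peaks at 296 CPM in P8 bone marrow.

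The design of the cross allowed the organs to be compared with genotype as a term. The mean of the 4 spleens against the mean of the 4 fetal livers was 846 ± 55.2 against 107 ± 33.3 CPM for Mfge8 (SD, n = 4), 263 ± 61.3 against 79.2 ± 29.2 CPM for Axl, and 33.9 ± 3.99 against 52.8 ± 4.13 CPM for Stab1. In edgeR's quasi-likelihood test with Benjamini-Hochberg adjustment, 8931 of 19087 genes (46.8%) differed, 4048 higher in spleen (21.2%) and 4883 lower (25.6%). With so many genes called, 4 of 9 calls among the clearance genes is near the background. Fitted log2 changes rest on library sizes multiplied by normalization factors, 0.543 to 1.20 for the livers and 1.11 to 1.40 for the spleens, and so were lower than the ratios of CPM. Gas6 was higher in spleen by 1.58 ± 0.20 (log2, SE; edgeR adjusted p = 0.000252). Mfge8 was higher by 2.13 ± 0.47 (edgeR adjusted p = 0.00511) and Axl by 1.03 ± 0.22 (edgeR adjusted p = 0.00487). Stab1 was lower, at -1.43 ± 0.30 (edgeR adjusted p = 0.00387).

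The other 5 genes did not pass without a litter term. Dnase2a was at 0.76 ± 0.32 (edgeR adjusted p = 0.0744), Timd4 at 1.27 ± 0.60 (edgeR adjusted p = 0.101), Mertk at 0.38 ± 0.44 (edgeR adjusted p = 0.486), Pros1 at 0.21 ± 0.24 (edgeR adjusted p = 0.473) and Itgav at -0.66 ± 0.40 (edgeR adjusted p = 0.181). The median over the 9 genes was 0.76, beside 0.10 over all genes tested. With the replicate number as a block, which pairs litter mates in the livers, Timd4 (1.74, edgeR adjusted p = 8.48e-06), Dnase2a (0.88, edgeR adjusted p = 0.000708) and Mertk (0.60, edgeR adjusted p = 0.0314) passed. Upper-quartile factors moved the median of all genes to 0.51 and the share of calls that were higher in spleen from 45.3% to 58.6%, and under them Dnase2a (1.23, edgeR adjusted p = 0.00989), Timd4 (1.77, edgeR adjusted p = 0.0320) and Pros1 (0.66, edgeR adjusted p = 0.0259) passed as well. Dnase2a also passed without wild-type fetal liver 2 (1.00, edgeR adjusted p = 0.0379) or knockout fetal liver 2 (1.07, edgeR adjusted p = 0.0274), Timd4 without wild-type fetal liver 2 (2.14, edgeR adjusted p = 0.00698), and Itgav, lower in spleen, without knockout fetal liver 4 (-1.02, edgeR adjusted p = 0.0455). With 2 sections per organ, the wild-type sections alone called Gas6, Stab1 and Itgav but neither Axl nor Mfge8, and the knockout sections alone called Gas6, Axl and Mfge8 but not Stab1.

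The purchased spleen and E14.5 liver, with 1 section each, allowed no test. The ratio of spleen to liver was 15.7 for Mfge8, 15.5 for Gas6, 10.7 for Axl, 5.85 for Timd4, 5.40 for Mertk, 3.07 for Dnase2a, 2.51 for Itgav, 1.81 for Pros1 and 0.738 for Stab1. Stab1 was thus again the gene below 1.

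The cross was made to ask what loss of C1qa does to these tissues. In the spleen the alpha v integrin gene was higher and the bridge Gas6 was lower in the knockouts. Itgav averaged 57.8 ± 1.62 CPM in knockout and 34.0 ± 5.49 CPM in wild-type spleen (SD, n = 2 each), a log2 change of 1.05 ± 0.18 (edgeR adjusted p = 0.00055). Gas6 averaged 90.5 ± 12.9 CPM in knockout and 149 ± 0.740 CPM in wild-type spleen, and fell by 0.46 ± 0.16 on the log2 scale (edgeR adjusted p = 0.0409). Across the genome 3886 of 18895 genes passed (20.6%), 2603 of them higher (13.8%) and 1283 lower (6.79%), so 2 of 9 is again near the background.

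Itgav stayed called in all 8 other settings of the fit and in all leave-one-out fits but the one without knockout spleen 2 (0.97, edgeR adjusted p = 0.0521). The Gas6 call was lost without wild-type spleen 1 (edgeR adjusted p = 0.0525), knockout spleen 1 (edgeR adjusted p = 0.116) or knockout spleen 2 (edgeR adjusted p = 0.427), and held in 5 of 8 other settings.

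For the remaining genes the spleen differences did not pass. Axl was at 211 ± 18.1 CPM in knockout and 315 ± 7.48 CPM in wild-type spleen, groups that did not overlap, yet its fitted change was -0.33 ± 0.17 (edgeR adjusted p = 0.158). Dnase2a (-0.31 ± 0.17, edgeR adjusted p = 0.175) and Pros1 (-0.19, edgeR adjusted p = 0.406) also had lower CPM in both knockouts than in both wild types. Mfge8 (0.40 ± 0.20, edgeR adjusted p = 0.141) had higher CPM in both knockouts. The share of all genes whose CPM separate the groups in this way is not given here. Unlike CPM, the fits used normalization factors, 1.09 and 1.10 for the wild-type and 0.967 and 0.865 for the knockout spleens. Mertk, at 88.5 ± 15.7 CPM in knockout and 88.1 ± 15.9 CPM in wild-type spleen, was at 0.27 ± 0.19 (edgeR adjusted p = 0.284), and Stab1 at 0.07 (edgeR adjusted p = 0.769). Timd4 was at 0.53 ± 0.20 (edgeR adjusted p = 0.0639) and passed without wild-type spleen 1 (0.86, edgeR adjusted p = 0.00233) or knockout spleen 1 (0.73, edgeR adjusted p = 0.0361). The median over the 9 genes was 0.07, beside -0.08 over all genes.

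Under upper-quartile factors the median of all genes went to -0.37 and the share of calls that were higher from 67.0% to 21.4%, while DESeq2 gave 86.2%. Axl (-0.61, edgeR adjusted p = 0.00936), Dnase2a (-0.60, edgeR adjusted p = 0.00536) and Pros1 (-0.47, edgeR adjusted p = 0.0274) then passed as lower, and Mertk and Stab1 turned sign.

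Other cell types moved with genotype in these spleens. Erythroid markers summed to 1116 to 2939 CPM in wild-type and 359 to 593 CPM in knockout spleens, neutrophil markers to 593 to 662 and 73.5 to 131 CPM, and stromal markers to 802 to 874 and 534 to 615 CPM. B cell markers were at 4469 to 5184 CPM in wild-type and 5472 to 6441 CPM in knockout spleens, and follicular dendritic cell markers, a list that shares Fcer2a and Cr2 with the B cell list, at 1214 to 1468 and 1854 to 1871 CPM. Macrophage markers overlapped, at 1599 to 2141 and 1528 to 1660 CPM. The part of these cells in the results for Itgav and Gas6 was not tested.

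In fetal liver no gene of the table passed by genotype, 0 of 18986 (0%), where 138 had an unadjusted p under 0.05 and DESeq2 called 12. The deleted gene C1qa itself, at -10.2 ± 1.35 (edgeR unadjusted p = 0.000129), was not called after adjustment. A missing call in this fit therefore cannot be read as a missing change. Itgav averaged 33.0 ± 7.94 CPM in knockout and 57.6 ± 22.5 CPM in wild-type liver (SD, n = 2 each), a log2 change of -0.96 ± 0.42 (edgeR adjusted p = 1.00). The other members lay between -0.70 for Mfge8 and 0.04 for Dnase2a, and the median was -0.52 beside 0.00 over all genes. Same-numbered livers were litter mates, and with a litter term 157 genes were called, 5 higher and 152 lower, none of them among the 9. Hepatocyte markers spanned 6542 to 96081 CPM among wild-type and 10368 to 47338 CPM among knockout livers, and the biological dispersion of the liver fit was 0.263 against 0.0245 for the spleen fit.

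Itgav thus had opposite signs by genotype in liver and spleen. Both knockout livers lay below both wild types, and both knockout spleens above, a pattern whose share over all genes is not given here. The difference between the changes was 1.99 ± 0.39 (edgeR adjusted p = 0.454), in a fit that called 0 of 19180 genes (0%), with 2018 at an unadjusted p under 0.05 and 9 by DESeq2. When litter mates shared a term, the difference was 2.03 ± 0.31 (edgeR adjusted p = 0.000681), the 1 member among 1409 genes called.

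**Figure D2:**
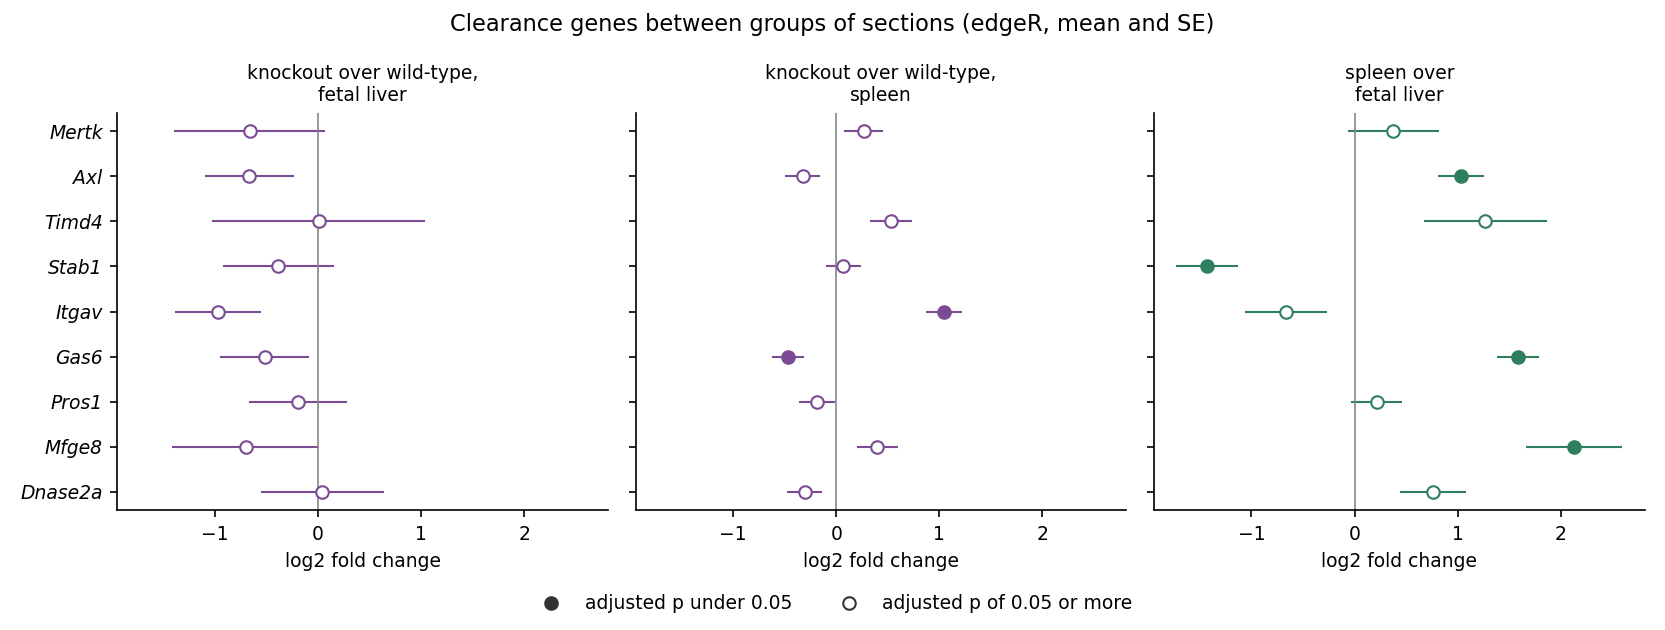
Fitted log2 change ± SE (horizontal axis) of each gene for knockout over wild-type fetal liver, knockout over wild-type spleen and spleen over fetal liver. Filled points had an edgeR adjusted p under 0.05: no gene in the first panel, Itgav and Gas6 in the second, and Gas6, Mfge8, Axl and Stab1 in the third.

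Levels of a whole section do not show where in the organ a gene lies, so spots were ranked within each section. They were ordered by the share of their UMIs that came from C1qb and C1qc, which mark macrophages and are intact in the knockout, within 10 bins of total UMIs. The third of spots with the highest share (C1q-high) was compared with the third with the lowest (C1q-low), with the section as a term. Few C1qb and C1qc counts lay behind some C1q-low classes. These had 5 counts over 546 spots in wild-type spleen 2, 77 over 710 in knockout liver 2 and 71 over 190 in knockout liver 4. Tied spots were ordered at random. Rankings by erythroid markers and by B and T cell markers were made the same way. The rankings order the same spots, so they are not independent of each other: C1qb was higher by 1.05 in erythroid-high and lower by 1.62 in lymphoid-high spots of the spleen on the log2 scale.

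Within the spleen the clearance genes fell into 2 sets and a remainder. Mertk, Axl, Stab1, Gas6 and Pros1 were higher in C1q-high spots, Mfge8 and Timd4 were lower there, and Dnase2a and Itgav did not pass. This made 7 of 9 called, where 1954 of 18485 genes (10.6%) were called in all, 1301 of them higher (7.04%) and 653 lower (3.53%).

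Mertk rose from 69.5 CPM in C1q-low to 130 CPM in C1q-high spots of wild-type spleen 1, from 56.9 to 96.7 CPM in wild-type spleen 2, from 54.3 to 119 CPM in knockout spleen 1 and from 55.4 to 157 CPM in knockout spleen 2. The log2 change was 1.15 ± 0.09 (edgeR adjusted p = 7.93e-06), higher in 4 of 4 sections. Axl went from 219 to 404 CPM, 270.2 to 375 CPM, 149 to 343 CPM and 102 to 323 CPM in the same order of sections, a change of 1.10 ± 0.12 (edgeR adjusted p = 5.61e-05). Both kinases were above their C1q-low level in every section. Stab1 was 1.63- to 1.99-fold higher by section (0.91 ± 0.10, edgeR adjusted p = 3.9e-05), Gas6 1.22- to 2.23-fold (0.76 ± 0.09, edgeR adjusted p = 9.17e-05) and Pros1 1.39- to 1.84-fold (0.71 ± 0.08, edgeR adjusted p = 4.37e-05).

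Mfge8 fell from 1180 to 461 CPM, 984 to 595 CPM, 1113 to 536 CPM and 1156 to 549 CPM between C1q-low and C1q-high spots of wild-type spleens 1 and 2 and knockout spleens 1 and 2, a change of -1.03 ± 0.09 (edgeR adjusted p = 1.57e-05). Timd4 fell from 61.9 to 39.3 CPM, 38.4 to 26.5 CPM, 56.3 to 37.8 CPM and 69.3 to 44.4 CPM (-0.59 ± 0.08, edgeR adjusted p = 0.000265). The receptor Timd4 was thus on the other side from the receptors Mertk, Axl and Stab1 in each of the 4 sections. Dnase2a was at 0.09 (edgeR adjusted p = 0.647) and Itgav at -0.07 (edgeR adjusted p = 0.812). The median over the 9 genes was 0.71, beside -0.02 over all genes.

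The lymphoid ranking gave the mirror image. In lymphoid-high spots 3047 of 18494 genes were called (16.5%), 1440 higher (7.79%) and 1607 lower (8.69%). Mfge8 was at 1322 against 299 CPM in lymphoid-high against lymphoid-low spots of wild-type spleen 1, 1144 against 446 CPM in wild-type spleen 2, 1210.0 against 478 CPM in knockout spleen 1 and 1415 against 430.4 CPM in knockout spleen 2. This was a change of 1.47 ± 0.12 (edgeR adjusted p = 5.12e-05). Timd4 was at 64.0 against 32.8 CPM, 45.2 against 25.5 CPM, 66.3 against 29.1 CPM and 89.0 against 30.1 CPM (0.99 ± 0.12, edgeR adjusted p = 0.000374). Both were higher among lymphocytes in all 4 sections.

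Axl (-1.36 ± 0.08, edgeR adjusted p = 1.07e-05), Mertk (-1.27 ± 0.09, edgeR adjusted p = 2.42e-05), Gas6 (-1.07 ± 0.08, edgeR adjusted p = 2.16e-05), Stab1 (-0.92 ± 0.14, edgeR adjusted p = 0.00179) and Pros1 (-0.89 ± 0.10, edgeR adjusted p = 0.000335) were lower there, also in 4 of 4 sections. Dnase2a was at -0.08 (edgeR adjusted p = 0.717) and Itgav at 0.22 (edgeR adjusted p = 0.457). The median was -0.89, beside 0.00 over all genes.

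In erythroid-high spots, where 1602 of 18489 genes were called (8.66%), 1082 higher (5.85%) and 520 lower (2.81%), the same 5 genes were higher. Axl was higher by 1.38 ± 0.14 (edgeR adjusted p = 0.000195), Mertk by 1.36 ± 0.14 (edgeR adjusted p = 0.000266), Stab1 by 1.06 ± 0.12 (edgeR adjusted p = 0.000342), Pros1 by 1.00 ± 0.12 (edgeR adjusted p = 0.000707) and Gas6 by 0.59 ± 0.12 (edgeR adjusted p = 0.00962). Mfge8 was lower, at -1.18 ± 0.19 (edgeR adjusted p = 0.00305). Timd4 was at -0.37 (edgeR adjusted p = 0.132) and Itgav at -0.30 (edgeR adjusted p = 0.334). Dnase2a, at 0.33 (edgeR adjusted p = 0.0781), had a higher level in erythroid-high spots of all 4 spleens, by 1.07- to 1.46-fold, and passed in main-tissue spots (edgeR adjusted p = 0.0481), with upper-quartile factors (edgeR adjusted p = 0.0447) and without knockout spleen 1 (edgeR adjusted p = 0.0486). Every spleen call named for the 3 rankings held in all 6 other settings and all 4 leave-one-out fits.

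**Figure D3:**
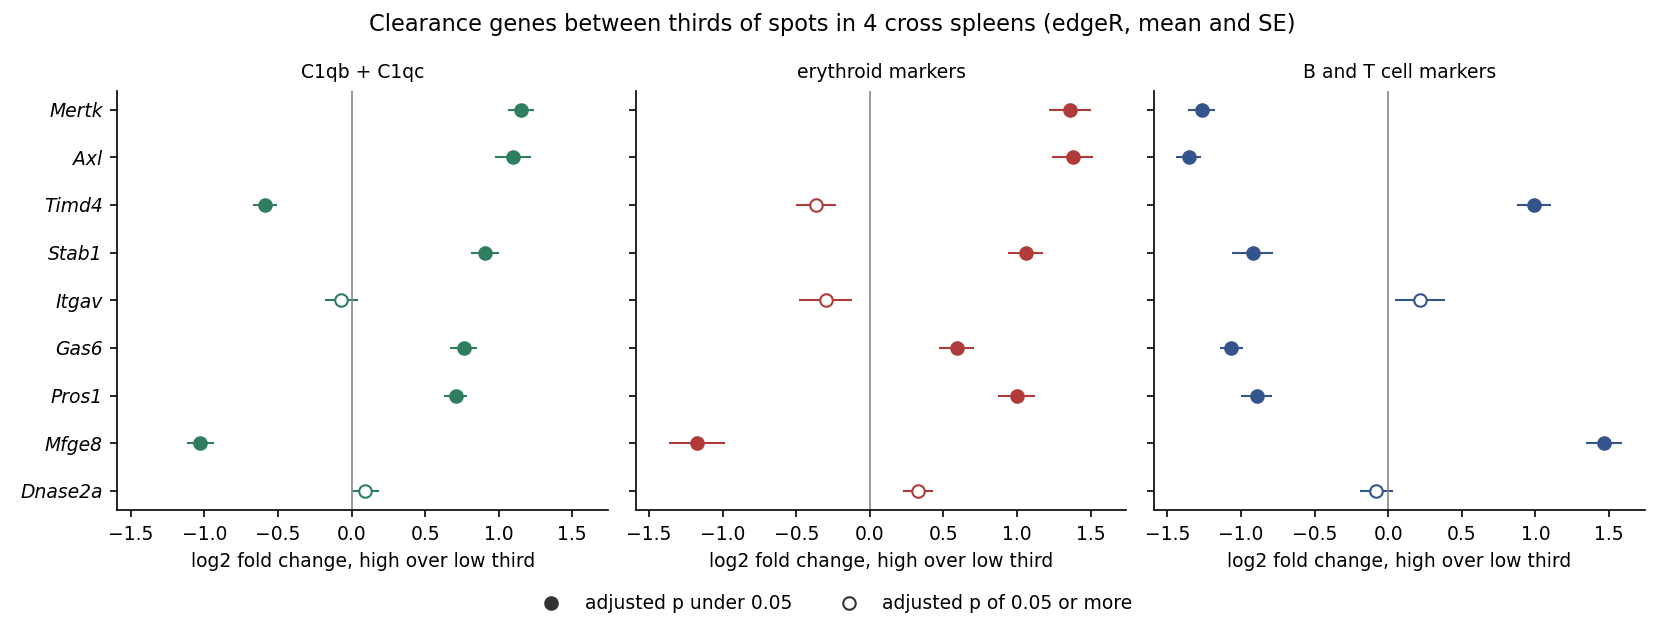
Fitted log2 change ± SE (horizontal axis) of each gene between the spots with the highest and the lowest share of C1qb and C1qc, of erythroid markers and of B and T cell markers, over the 4 spleens of the cross. Mertk, Axl, Stab1, Gas6 and Pros1 lie right of 0 in the first and second panels and left of it in the third, and Mfge8 lies on the other side in each, as does Timd4 in the panels for C1q and for B and T cells. In the second panel Timd4 (-0.37), Itgav (-0.30) and Dnase2a (0.33) did not pass.

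The purchased spleen, which no fit used, had the same ordering. In its C1q-high spots Mertk was at 223 CPM against 77.6 CPM, Axl at 449 against 175 CPM and Stab1 at 60.1 against 19.2 CPM in C1q-low spots. Mfge8 was at 323 against 946 CPM and Timd4 at 68.0 against 113 CPM. In its lymphoid-high spots Mfge8 was at 967 against 327 CPM and Timd4 at 133 against 58.7 CPM. This was a single section, so the ratios carry counting error only.

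Whether C1qa genotype changed these patterns was tested as an interaction. For the C1q ranking 54 of 18485 genes passed (0.292%), and none of the 9. Axl (0.61, edgeR adjusted p = 0.228) was at 0.87 without wild-type spleen 1. In the erythroid ranking, which called 309 of 18489 genes (1.67%), Itgav differed. Its erythroid-high level was 0.423 and 0.668 times the erythroid-low level in the wild-type spleens and 0.991 and 1.21 times in the knockouts, a difference of 0.98 ± 0.21 (edgeR adjusted p = 0.0262). The call was lost without wild-type spleen 1 (0.67, edgeR adjusted p = 0.553) or knockout spleen 2 (0.78, edgeR adjusted p = 0.108).

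In the lymphoid ranking, which called 748 of 18494 genes (4.04%), Dnase2a differed by 0.53 ± 0.13 (edgeR adjusted p = 0.0325). It was below its lymphoid-low level in both wild-type spleens and above it in both knockouts, from 0.875-fold to 1.33-fold. The call was lost without wild-type spleen 1 (0.28, edgeR adjusted p = 0.730), knockout spleen 1 (0.47, edgeR adjusted p = 0.350) or knockout spleen 2 (0.45, edgeR adjusted p = 0.457). The other 8 genes did not pass in either ranking. Without wild-type spleen 2, Mfge8 (1.14, edgeR adjusted p = 0.000232) and Timd4 (0.72, edgeR adjusted p = 0.0180) also passed in the erythroid ranking, and Itgav (-1.11, edgeR adjusted p = 0.000337) and Mfge8 (-0.59, edgeR adjusted p = 0.000456) in the lymphoid ranking.

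In fetal liver the ranking by C1q separated the clearance genes less. Of 18630 genes 181 were called (0.972%), none of them among the 9, and DESeq2 called 326 genes and none of the 9. Stab1 was at 0.53 ± 0.18 (edgeR adjusted p = 0.228), Timd4 at 0.36 ± 0.21 (edgeR adjusted p = 0.523), Dnase2a at 0.32 ± 0.09 (edgeR adjusted p = 0.117), Mertk at 0.19 ± 0.07 (edgeR adjusted p = 0.240) and Axl at 0.18 ± 0.06 (edgeR adjusted p = 0.217). By section of the cross Mertk was 1.03- to 1.12-fold higher in C1q-high spots of the livers, against 1.70- to 2.83-fold in the spleens. In the purchased livers the Mertk ratio was 1.19 (95% interval 1.05 to 1.36) at E14.5 and 1.43 (1.21 to 1.68) at E13.5, against 2.87 (2.56 to 3.23) in the purchased spleen. The Timd4 ratio there was 1.62 (95% interval 1.37 to 1.91) at E14.5 and 2.73 (2.20 to 3.40) at E13.5, intervals that cover counting error only. Among the 4 livers of the cross the Timd4 ratio ran from 0.786 to 2.03 and was above 1 in only 2.

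Gas6 was lower where erythroid markers were high in fetal liver. Erythroid-low and erythroid-high spots had 49.3 and 9.81 CPM in wild-type liver 2, 33.5 and 19.9 CPM in wild-type liver 4, 26.2 and 9.42 CPM in knockout liver 2, and 55.9 and 11.7 CPM in knockout liver 4. The change was -1.46 ± 0.26 (edgeR adjusted p = 0.0229), in a fit that called 2120 of 18700 genes (11.3%) and 1 of the 9. It was lost without knockout liver 2 (-1.47, edgeR adjusted p = 0.102) or knockout liver 4 (-1.21, edgeR adjusted p = 0.128), and was -0.58 (edgeR adjusted p = 0.0575) in main-tissue spots, where Itgav was called instead (-0.60, edgeR adjusted p = 0.0236). The purchased livers had Gas6 ratios of 0.687 at E14.5 and 0.670 at E13.5.

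Itgav was at -0.90 ± 0.26 (edgeR adjusted p = 0.0650) in erythroid-high liver spots, Timd4 at 0.85 ± 0.24 (edgeR adjusted p = 0.0596) and Dnase2a at 0.60 ± 0.17 (edgeR adjusted p = 0.0567). By DESeq2 these 3 passed as well, at -0.83 (adjusted p = 0.0170), 0.92 (adjusted p = 0.0183) and 0.67 (adjusted p = 0.0391). Ranked by hepatocyte markers, 1835 of 18676 genes were called (9.83%) and again Gas6 was the 1 member, at -1.28 ± 0.22 (edgeR adjusted p = 0.0155). That call was lost without knockout liver 4 (-1.07, edgeR adjusted p = 0.0897) and in main-tissue spots (-0.25, edgeR adjusted p = 0.563), where Mfge8 was called (0.30, edgeR adjusted p = 0.0189). No gene passed for a difference of these liver patterns by genotype (0% for the C1q, erythroid and hepatocyte rankings), with 330, 445 and 416 genes at an unadjusted p under 0.05.

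The contrast between the organs was then tested directly, as the spleen change minus the liver change. For the C1q ranking 842 of 19038 genes differed (4.42%), 550 with the larger change in spleen (2.89%) and 292 with the smaller (1.53%), and 5 of the 9 clearance genes were among them. The difference was 0.95 ± 0.11 for Mertk (edgeR adjusted p = 0.000659), 0.91 ± 0.17 for Axl (edgeR adjusted p = 0.00731), 0.57 ± 0.10 for Pros1 (edgeR adjusted p = 0.00668), -1.06 ± 0.12 for Mfge8 (edgeR adjusted p = 0.000633) and -0.95 ± 0.21 for Timd4 (edgeR adjusted p = 0.0200). The Timd4 call was lost without knockout fetal liver 2 (edgeR adjusted p = 0.0796), knockout spleen 1 (edgeR adjusted p = 0.0555) or knockout spleen 2 (edgeR adjusted p = 0.0751), while the other 4 held in all 8 leave-one-out fits. Without wild-type fetal liver 4, Gas6 (1.27, edgeR adjusted p = 0.0193) and Stab1 (0.69, edgeR adjusted p = 0.0204) passed too, as they did in main-tissue spots (0.62, edgeR adjusted p = 0.0379, and 0.85, edgeR adjusted p = 4.52e-05).

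For the erythroid ranking 2041 of 19051 genes differed (10.7%), 1425 upwards (7.48%) and 616 downwards (3.23%). Gas6 (1.96 ± 0.32, edgeR adjusted p = 0.00444), Axl (1.84 ± 0.28, edgeR adjusted p = 0.00381), Mertk (1.51 ± 0.25, edgeR adjusted p = 0.00472) and Stab1 (1.11 ± 0.17, edgeR adjusted p = 0.00353) differed in all 8 leave-one-out fits. Pros1 (0.87 ± 0.20, edgeR adjusted p = 0.0204), Mfge8 (-1.03 ± 0.25, edgeR adjusted p = 0.0272) and Timd4 (-1.23 ± 0.30, edgeR adjusted p = 0.0253) lost their calls in 3, 6 and 4 of them, where edgeR adjusted p ran from 0.0526 to 0.0683, from 0.0521 to 0.0728 and from 0.0531 to 0.0792. All 3 genes lost them without wild-type spleen 1, wild-type spleen 2 or knockout spleen 2, Mfge8 also without wild-type liver 2, wild-type liver 4 or knockout liver 2, and Timd4 also without knockout liver 4. Gas6 was thus on the erythroid side in spleen and off it in fetal liver.

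**Figure D4:**
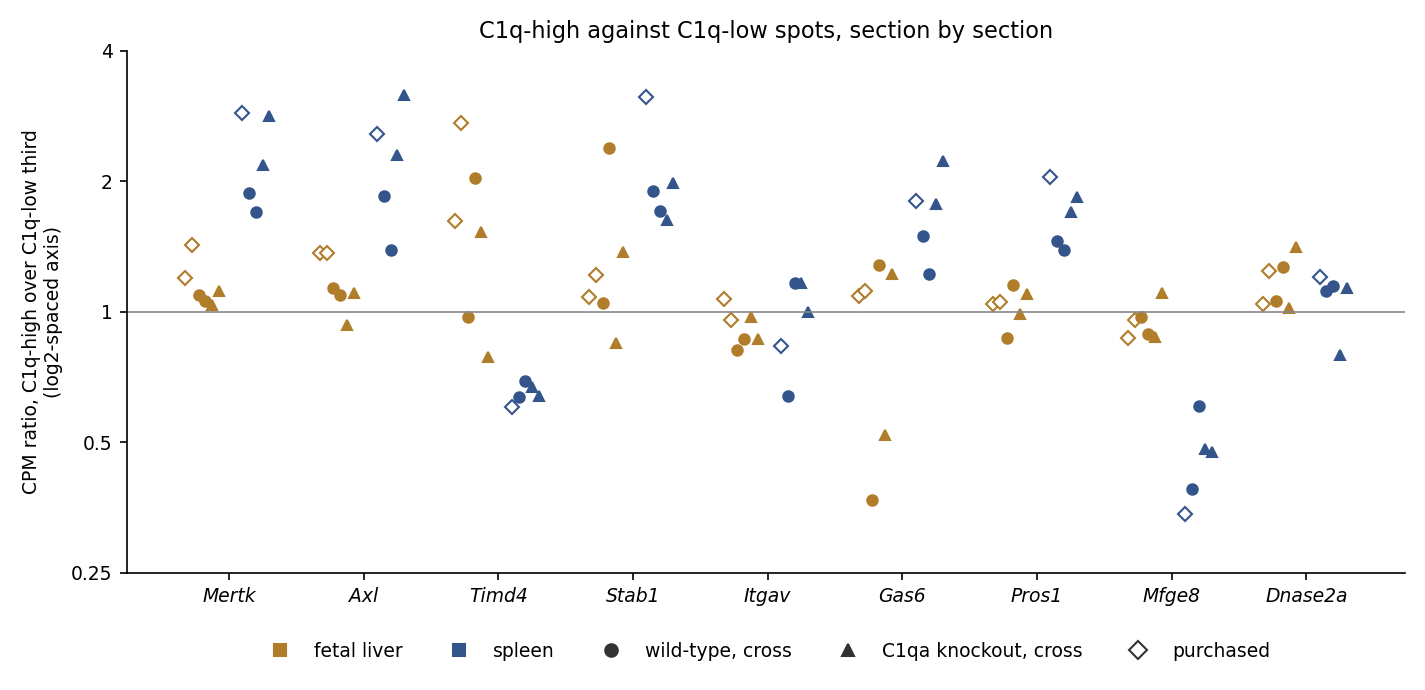
Ratio of CPM in C1q-high to C1q-low spots (vertical axis, log2-spaced) for each gene (horizontal axis) and section, gold for fetal liver and blue for spleen. Circles are wild-type and triangles knockout sections of the cross, and open diamonds are purchased sections. Over all sections Mertk lies between 1.70 and 2.87 in spleen and between 1.03 and 1.43 in fetal liver, and Mfge8 between 0.342 and 0.605 in spleen and between 0.872 and 1.11 in fetal liver.

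A list of 46 further genes of the pathway set these results in context, 45 of which were tested. None passed by genotype in fetal liver, in the fit that did not call C1qa either. In knockout spleen 13 were higher and 1 lower, in a fit that called 20.6% of all genes and whose share of higher calls fell from 67.0% to 21.4% with upper-quartile factors. They included 4 of 9 genes of the engulfment machinery, among them the small GTPase Rac1 (1.44 ± 0.20, edgeR adjusted p = 0.00011) and its activator subunit Elmo1 (1.43 ± 0.21, edgeR adjusted p = 0.000197), and 6 of 10 genes of digestion, among them the endosomal GTPase Rab5a (1.66 ± 0.32, edgeR adjusted p = 0.00168), the phagosome maturation gene Uvrag (0.94) and the lysosomal lipase Lipa (0.96). Of 14 other receptors 1 passed, Cd14, at -0.74 (edgeR adjusted p = 0.0410), and of 6 other bridging molecules C1qb, at 0.83 (edgeR adjusted p = 0.00759). The list's median was 0.25, beside -0.08 over all genes. Between spleen and fetal liver 22 of the 45 passed, 13 higher in spleen and 9 lower, a share near the 46.8% of all genes called in that fit. The nuclease Dnase1l3 (4.59) and the Rac activator Dock2 (3.71) were higher in spleen, and the bridge Thbs1 (-2.89) and the integrin chain Itgb5 (-1.38) were lower.

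Within the spleen, leaving out C1qb and C1qc, which made the ranking, 14 of the list's 43 genes differed in C1q-high spots, where 10.6% of all genes were called, and 13 of them were higher. These included the receptors Stab2 (1.02), Cd300a (1.08), Itgb5 (1.04) and Itgb3 (0.77) and the bridges Thbs1 (1.38), Anxa1 (0.51) and Anxa5 (0.38). The 1 lower gene was Rubcn (-0.49), which acts in LC3-associated phagocytosis. No other receptor or bridge was called on the side of Mfge8 and Timd4. In lymphoid-high spots, where 16.5% of all genes were called, 10 of the 43 were lower and 4, all of digestion or engulfment, were higher: Rubcn (0.91), Uvrag (0.51), Dock2 (0.41) and the lysosomal nucleoside transporter Slc29a3 (0.36). In erythroid-high spots, with 8.66% of all genes called, 9 of the 43 were higher and none lower, led by Thbs1 (1.91), Cd300a (1.58) and Stab2 (1.44). In fetal liver, with 0.972% of all genes called, 2 of the 43 were higher in C1q-high spots, the scavenger receptor Marco (0.74 ± 0.13, edgeR adjusted p = 0.0419) and the Cd47 receptor Sirpa (0.36 ± 0.06, edgeR adjusted p = 0.0450).

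Age of the leg bones could be compared only as 1 section against 1. The study describes cryosectioning for adult femurs, with the marrow separated from the bone before embedding, but not for its P8 femurs. Age and preparation therefore cannot be told apart in the ratios below. Itgav was 15.7-fold (95% exact interval 13.4 to 18.5, counting error only) and Mfge8 14.7-fold (12.2 to 17.9) higher at P8 than at 89 weeks. In main-tissue spots, 303 of 1085 at P8, these ratios were 12.9 and 4.65. Stab1 was 3.00-fold (2.47-fold in main-tissue spots), Mertk 2.45-fold (1.58-fold) and Timd4 2.03-fold (3.50-fold) higher at P8, and Pros1 1.26-fold (1.14-fold). Gas6, at 0.788 (0.545), and Dnase2a, at 0.569 (0.747), were lower at P8. Axl was at 1.17 over all spots and at 0.859 in main-tissue spots. Markers of other tissues differed between these sections as well. Stromal markers summed to 114312 CPM at P8 and 443 CPM at 89 weeks, cartilage markers to 31048 and 13.6 CPM, muscle markers to 7245 and 16.5 CPM and bone markers to 2887 and 72.4 CPM, while neutrophil markers summed to 5744 and 27775 CPM. Their part in these ratios was not tested. Among the main-tissue spots of the P8 section, 100 spots in each class, Itgav was at 128 CPM in erythroid-high and 381 CPM in erythroid-low spots, a ratio of 0.337 (0.299 to 0.378), and among 310 spots in each class of the 89-week section the ratio was 0.619 (0.413 to 0.920). Ratios of the E14.5 over the E13.5 liver ran from 0.719 (0.669 to 0.773) for Axl to 1.05 (0.965 to 1.14) for Mertk. The intervals of Gas6, Itgav, Mfge8, Timd4 and Stab1 also lay below 1, and those of Mertk, Pros1 and Dnase2a covered 1. With 1 section per stage these intervals hold counting error only.

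Finally, the genes whose levels most resembled each member's were found over the 13 sections, as Pearson's r of log2(CPM + 1) among 10308 genes with a mean of at least 10 CPM. The sections share organ, source and depth, so r is a description. Mertk was most like Lgmn (0.977), Agpat3 (0.976) and Slco2a1 (0.961), and Axl like Zfp710 (0.982), Fyco1 (0.980) and Nr4a1 (0.979). Timd4 was most like Spic (0.962), Tmem51 (0.959) and Nr1h3 (0.958). Stab1 was most like Col18a1 (0.954), Pdia5 (0.953) and Cdh5 (0.927).

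Gas6 was most like Arrdc4 (0.978), Esr1 (0.970) and Lepr (0.969), Pros1 like Slc35e4 (0.961), Chpt1 (0.959) and C1qtnf1 (0.954), and Mfge8 like Snx8 (0.969), Pxdc1 (0.963) and Enpp2 (0.962). Dnase2a was most like Clec4a1 (0.978), S1pr4 (0.978) and Casp1 (0.977). Itgav had the lowest values, Prrc1 (0.926), Crtap (0.919) and Thbs4 (0.919). Among the members themselves r was 0.940 for Gas6 with Pros1, 0.939 for Mertk with Mfge8 and 0.862 for Axl with Gas6, and -0.731 for Dnase2a with Stab1. The pair Mertk and Mfge8 was thus alike between sections although its genes changed in opposite directions from C1q-low to C1q-high spots of each spleen.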

How the data were processed

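Spot-by-gene counts of UMIs and spot positions of 14 Visium sections were deposited by the authors without normalization; the submitters' processing notes name Space Ranger and mm10, and the software named in the headers differed between sections. The other deposited tables gave barcodes, gene names and whether a spot lay over tissue. The deposited counts were summed per section over tissue-covered spots with at least 1000 detected genes, and CPM were computed from those sums. Total UMIs per section were 37167 to 56182915. Poisson and exact binomial intervals (95%) cover counting error only, and a count of 0 was read as up to 3 counts.

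The members, marker lists and pathway list were chosen with earlier results of these data known. All 9 members were tested in every comparison, but values for some are left out of the text, as in the liver rankings. At most 10 listed pathway genes with the smallest adjusted p and the 3 most similar genes per member are named. Sums were tested with edgeR 4.0.16 (R 4.3.3; limma 3.58.1), TMM factors, filterByExpr and quasi-likelihood F-tests, adjusted over all genes with a threshold of 0.05. Spot rankings used 10 bins of total UMIs with equal numbers of spots, ties broken by a fixed seed. The fits were tested on simulated data. Alternatives were DESeq2 1.42.0, upper-quartile factors, at least 2000 genes per spot, thinned sums, a replicate block, no bins, rankings split at the median, no filter on low counts, all tissue-covered spots, and leaving out each section. Main-tissue spots had at least 0.5% of their UMIs from hepatocyte (liver) or neutrophil (bone) markers, or under 0.5% from pancreas genes (spleen). Leg bones were ranked within such spots only. Ranking within main-tissue spots, main-tissue fits with the block, and all interactions of rankings with genotype or tissue were added after seeing the data. Same-numbered fetal livers were litter mates, as the legends of the study's supplement state, and their deviations from the group means correlated at r = 0.642 over 18986 genes. Promoter windows and gene bounds are from RefSeq, GRCm38.p6. Columns of per-sample values left unused numbered 0. The EDTA section, with 15 spots, entered no fit.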

Additional observations from a re-analysis of the deposited data

Results flagged for a closer look

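In 14 results the same contrast differed between tissues or genotypes by a test. In 2 more the CPM of every section moved in opposite ways in the tissues. The tests are edgeR's quasi-likelihood tests given above, and the rankings were compared after the data had been seen. Between spleen and fetal liver, the change from C1q-low to C1q-high spots differed for Mertk by 0.95, for Axl by 0.91, for Pros1 by 0.57, for Mfge8 by -1.06 and for Timd4 by -0.95 on the log2 scale. The change from erythroid-low to erythroid-high spots differed for Gas6 by 1.96, for Axl by 1.84, for Mertk by 1.51, for Stab1 by 1.11, for Pros1 by 0.87, for Mfge8 by -1.03 and for Timd4 by -1.23.

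Between genotypes in spleen, the erythroid change of Itgav differed by 0.98 and the lymphoid change of Dnase2a by 0.53. By CPM, every knockout section of Itgav and of Dnase2a lay on the opposite side of the wild types in the liver and in the spleen. The share of all genes with such a pattern is not given here. For Dnase2a the fitted liver change was 0.04 ± 0.60, and it was -0.063 in main-tissue spots, the sign of its spleen change (-0.31). The genotype changes differed by 1.99 for Itgav (edgeR adjusted p = 0.454) and by -0.36 for Dnase2a (edgeR adjusted p = 0.826), neither past the threshold.

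The purchased sections also hold spots outside the tissue, which no comparison used. The 9 genes together had 5128 counts there for the E14.5 liver, 3768 for the E13.5 liver, 9470 for P8 leg bone, 3774 for 89-week leg bone, 9857 for adult spleen and 18 for the EDTA section. Per spot this was 8.16%, 4.09%, 12.9%, 24.3%, 11.4% and 0.230% of the count in the spots kept, in the same order. The source of these counts was not tested.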

How the results depend on the processing

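Of 647 single log2 changes recomputed under settings other than leaving out a section, 592 kept their direction and their side of the threshold, 8 lost a call, 19 gained one and 28 turned sign, and of 536 recomputed without 1 section 463, 28, 7 and 38 did so. Of 342 CPM levels recomputed over other spots or thinned sums, 44 moved beyond 1 SD or the counting interval, as did 6 of 81 CPM ratios, and 1 ratio changed direction. None of the log2 changes that turned sign had been called, and the causes were not tested. In the spleen genotype fit the number of members called moved to 1 with DESeq2, with at least 2000 genes per spot and with thinned sums. These settings called 2705, 2346 and 2598 genes in all, against 3886. Upper-quartile factors moved the number to 5 there, with 5597 genes called in all. In the spleen against liver fit they moved it to 7, with 8029 genes called in all, against 8931. The number of members called moved to 4 with DESeq2 in liver erythroid-high spots, with 2930 genes called in all, against 2120. It ranged over leave-one-out fits from 0 to 2 for spleen genotype, 0 to 1 for liver erythroid-high and for liver hepatocyte-high spots, 0 to 1 for the C1q, 0 to 3 for the erythroid and 0 to 3 for the lymphoid ranking by genotype, and 4 to 7 for the erythroid ranking by tissue. Changes near 0 turned sign in these cases. For fetal liver genotype, Timd4 was -0.0043 with at least 2000 genes per spot and -0.050 in main-tissue spots, Dnase2a -0.063 and Gas6 0.059 in main-tissue spots, and Pros1 0.0062 with upper-quartile factors. For spleen genotype with upper-quartile factors, Mertk was -0.037 and Stab1 -0.22. For spleen against liver, Mertk was -0.086 in wild-type sections alone and Itgav 0.44 in knockout sections alone. For genotype by tissue, upper-quartile factors gave -0.14 for Axl, -0.48 for Gas6 and -0.0057 for Stab1, main-tissue spots gave -0.38 for Gas6 and 0.12 for Pros1, and Pros1 was 0.074 with DESeq2, 0.011 with at least 2000 genes and 0.055 thinned. In liver C1q-high main-tissue spots Gas6 was 0.16. In liver hepatocyte-high spots Mertk was 0.019 with upper-quartile factors, 0.038 with DESeq2 and 0.15 in main-tissue spots, where Dnase2a was -0.035 and Pros1 -0.0074, and without bins Mfge8 was -0.073 and Stab1 -0.047. The P8 to 89-week ratio of Axl was 0.859 in main-tissue spots.

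Leaving out 1 section, fetal liver genotype ranged from -1.75 to 0.37 for Mertk, -1.32 to 2.24 for Timd4, -0.63 to 0.80 for Dnase2a, -0.65 to 0.18 for Pros1, -1.69 to 0.25 for Mfge8 and -1.02 to 0.14 for Stab1, and spleen genotype from -0.036 to 0.50 for Mertk and -0.048 to 0.22 for Stab1. Genotype by tissue ranged from -0.053 to 2.00 for Mertk, -1.63 to 1.83 for Timd4, -1.06 to 0.31 for Dnase2a, -0.23 to 0.28 for Gas6, -0.36 to 0.45 for Pros1 and -0.012 to 1.09 for Stab1. Liver C1q-high spots ranged from -0.54 to 0.19 for Gas6 and -0.033 to 0.061 for Mfge8, erythroid-high from -0.13 to 0.066 for Stab1, and hepatocyte-high from -0.15 to 0.13 for Mertk, -0.037 to 0.27 for Pros1 and -0.077 to 0.20 for Mfge8. Spleen C1q-high spots ranged from -0.017 to 0.21 for Dnase2a and -0.19 to 0.077 for Itgav, and lymphoid-high from -0.16 to 0.069 for Dnase2a and -0.073 to 0.34 for Itgav.

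With the replicate block, 157 genes were called for fetal liver genotype, 1409 for genotype by tissue with 1 member (Itgav) and Pros1 at 0.024, and 12247 for spleen against liver with 7 members, where Mertk (0.60, edgeR adjusted p = 0.0314), Dnase2a (0.88, edgeR adjusted p = 0.000708) and Timd4 (1.74, edgeR adjusted p = 8.48e-06) joined. Main-tissue spots with the block gave -0.086 for Dnase2a and 0.089 for Gas6 by genotype in liver. The spleens share only a number (r = 0.0207), and there the block called 4968 genes and 3 members, with Timd4 added (0.54, edgeR adjusted p = 0.0222). Over all genes, spleen genotype called 2346 with at least 2000 genes per spot and 240 without knockout spleen 2, against 3886, and fetal liver genotype 109 without wild-type liver 2 and 103 without wild-type liver 4, against 0. Spleen against liver called 4049 in knockout sections alone, against 8931. Liver C1q-high spots called 1 without bins, 108 with upper-quartile factors, 22 in main-tissue spots and 2 to 359 with 1 section left out, against 181. Liver erythroid-high spots called 1138, 1203, 1400 and 0 to 2059, against 2120, and liver hepatocyte-high spots 1077 without bins, 696 in main-tissue spots and 103 to 1418, against 1835. Spleen C1q-high and lymphoid-high spots called 989 and 1760 genes by DESeq2, against 1954 and 3047. No spot of the EDTA section held 2000 genes, so it gave no value there. Timd4, at 18 counts in 89-week leg bone, and the EDTA section are the values most limited by depth.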
